A study of Homo sapiens with 8 samples.

Results

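CDKN1A, CDKN1B, CDKN2A, CDKN2C, CDKN2D, CDKN3, RB1, RBL1, RBL2 and FAF1 were followed in RNA-seq libraries of the multiple myeloma (MM) cell lines JJN3 and H929. They encode the inhibitors of cyclin-dependent kinases (CDKs), a phosphatase that acts on CDKs, the retinoblastoma (RB) protein with its relatives, and the gene beside CDKN2C on chromosome 1. The 10 genes were selected by symbol out of 63677 genes counted, partly on their measured levels: CDKN2C and FAF1 were listed because of how their levels differed among these same libraries, so their values are described without a test. The other 8 were also chosen with earlier results of these data known, and were tested in fits over all genes. Every symbol had one Ensembl gene except RBL1, for which the gene with the higher summed count was taken over an antisense RNA with 50 counts in all.

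JJN3 and H929 cells were given THZ1, a covalent CDK7 inhibitor, at 50 nM for 24 h, or DMSO, its vehicle, for the same time. Each line and treatment had 2 libraries, 8 in all, and no cells without vehicle were sequenced. The total count on genes was between 17476443 and 19194371 per library, so that 3 counts, the limit that a count of 0 allows, corresponded to 0.156 to 0.172 CPM (counts scaled to the library total). This limit covers counting error only. The labels do not say that replicates were separate cultures, so p-values measure only the spread between these libraries.

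The libraries labelled H929 DMSO and H929 THZ1 differed in genes that mark myeloma lines, and whether they differed in treatment alone was not tested. H929 is a line whose translocation places FGFR3 and NSD2 (WHSC1 in these files) beside an immunoglobulin enhancer, while JJN3 carries a translocation of MAF. FGFR3 had 14117 and 13411 counts under the H929 THZ1 label, 45 and 285 in those labelled H929 DMSO, and at most 2 in JJN3. WHSC1 had 6544 and 7026 counts with the H929 DMSO label, 15702 and 16276 with the H929 THZ1 label and 2835 to 3362 in JJN3. MAF had 18006 and 16310 counts with the H929 DMSO label and 2729 and 2942 with the H929 THZ1 label, against 8873 to 16840 in JJN3. The authors report MAF protein activation in H929, and less MAF mRNA by qRT-PCR in both lines after THZ1 at a lower dose. CCND1, encoding cyclin D1, had 1540 to 1806 counts in all 4 libraries labelled H929 and at most 2 in JJN3. The identity of these libraries and the treatment therefore cannot be told apart, and every value for H929 is given for the libraries as labelled.

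All 8 libraries held plasma cell transcripts. Each of the 8 plasma cell markers had at least 10 counts in every library, except SLAMF7 with 2 counts in H929 DMSO replicate 1. The 4 markers each of B cells, myeloid cells and stroma summed to at most 4.67 CPM in any library. The 4 T cell markers summed to 0.969 to 9.4 CPM, except for 50.5 to 51.0 CPM with the H929 THZ1 label, where CD3E had 640 and 650 counts, TRBC2 315 and 309, CD2 6 in each and CD3D 0. With the H929 DMSO label CD3E had 15 and 26 counts and TRBC2 0 and 6. The part of these transcripts in the results was not tested.

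Cells enter S phase when CDK4 or CDK6 with a D cyclin, and then CDK2 with cyclin E, phosphorylate RB and release E2F transcription factors. INK4 proteins (from CDKN2A, CDKN2B, CDKN2C and CDKN2D) bind CDK4 and CDK6, and CIP/KIP proteins (from CDKN1A, CDKN1B and CDKN1C) bind cyclin-CDK complexes. CDK7 is the kinase that activates other CDKs and also phosphorylates RNA polymerase II. In MM, deletion of the part of chromosome 1 that holds CDKN2C and loss of the part of chromosome 13 that holds RB1 are recurrent lesions.

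Promoters of the 10 genes were taken from RefSeq (build GRCh38.p14) and all 10 symbols had at least one. The motifs TTTCGCGC, TTTGGCGC and TTTCCCGC (E2F), TTTGAA (the CHR element), CCAAT and GGGCGG (SP1) were searched on both strands. The windows searched were the 250 bases before a start. For RB1 the only window was the one before the start at chr13:48476450, and other RB1 starts were not searched. Whether that window is the main RB1 promoter was not tested, so RB1 cannot be said to lack any of these motifs. G and C made up 36.8% of that window, where the median of all promoters was 58.0%. RBL1 is shown because, of the windows searched, only its window held an E2F motif, and CDKN3 because only its window held a CHR motif. CDKN2D is shown because its transcript had the largest change in JJN3, and FAF1 because it starts beside CDKN2C and runs the other way. Each line gives the 250 bases before the start, 5′ to 3′ on the strand of the gene, with E2F motifs in capitals in RBL1 and the CHR motif in capitals in CDKN3. RBL1 lies on the minus strand (chr20:37095998-37096247), CDKN3 on the plus strand (chr14:54396757-54397006), CDKN2D on the minus strand (chr19:10568980-10569229) and FAF1 on the minus strand (chr1:50960268-50960517).
RBL1: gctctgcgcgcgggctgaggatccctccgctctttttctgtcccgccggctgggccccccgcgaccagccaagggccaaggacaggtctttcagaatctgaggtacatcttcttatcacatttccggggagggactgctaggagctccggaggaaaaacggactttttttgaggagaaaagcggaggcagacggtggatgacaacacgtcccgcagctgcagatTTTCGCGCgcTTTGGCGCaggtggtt
CDKN3: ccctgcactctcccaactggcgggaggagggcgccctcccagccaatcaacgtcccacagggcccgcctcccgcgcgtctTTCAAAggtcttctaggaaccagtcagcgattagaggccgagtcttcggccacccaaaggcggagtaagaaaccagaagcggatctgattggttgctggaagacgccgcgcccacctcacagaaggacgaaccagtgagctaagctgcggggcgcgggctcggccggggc
CDKN2D: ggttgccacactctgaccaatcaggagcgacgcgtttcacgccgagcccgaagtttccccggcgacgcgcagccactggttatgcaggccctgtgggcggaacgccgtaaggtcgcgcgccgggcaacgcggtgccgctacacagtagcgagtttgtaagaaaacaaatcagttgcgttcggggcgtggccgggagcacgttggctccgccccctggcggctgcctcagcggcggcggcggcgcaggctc
FAF1: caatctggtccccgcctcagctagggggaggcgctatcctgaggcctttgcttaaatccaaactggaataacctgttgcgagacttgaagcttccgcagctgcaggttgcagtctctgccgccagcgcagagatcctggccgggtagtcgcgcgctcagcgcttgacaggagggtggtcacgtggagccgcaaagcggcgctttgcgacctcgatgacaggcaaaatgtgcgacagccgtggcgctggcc
In RBL1, TTTCGCGC began 26 and TTTGGCGC 16 bases before the start, both on the strand of the gene. Of 35116 RefSeq promoters, 0.44% held the first, 0.55% the second and 1.39% TTTCCCGC. In CDKN3 the CHR motif TTTGAA lay on the opposite strand, with its outer base 170 bases before the start, a motif found in 13.32% of all promoters, and CCAAT (32.01% of promoters) was at 208 and 83 bases before the start. The CDKN2D window held GGGCGG (42.64% of promoters) on both strands and CCAAT. A match is a description of letters and not of a bound site. The first CDKN2C start in RefSeq and the FAF1 start point away from each other with 477 bases between them. FAF1 starts at chr1:50960267, and further CDKN2C starts lie at chr1:50968706 and chr1:50970245. From which start CDKN2C was transcribed here was not tested.

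THZ1 in JJN3 raised transcripts of 2 CDK inhibitors, CDKN2D (p19-INK4d) and CDKN1A (p21), and lowered CDKN3, the CDK-associated phosphatase. Here and in what follows, higher and lower are relative to the other transcripts of a library, as RNA per cell was not measured. The other 5 genes tested, CDKN1B, CDKN2A, RB1, RBL1 and RBL2, changed by less than the limit set on the fold change. TMM-scaled counts were tested by the quasi-likelihood method of edgeR, and p-values were adjusted by Benjamini-Hochberg over all genes tested. A gene was called where the adjusted p was under 0.05 and the fold change beyond 0.5 on the log2 scale. In these terms 2 of 8 were higher and 1 of 8 lower, against 20.6% higher and 21.3% lower among all 13984 genes tested. On the adjusted p alone all 8 passed, against 59.0% of all genes, but RB1 (0.0457) did not pass without JJN3 DMSO replicate 1 (0.341) or replicate 2 (0.118) or THZ1 replicate 2 (0.0512). CDKN2A did not pass without DMSO replicate 1 (0.0568) or replicate 2 (0.064) or THZ1 replicate 1 (0.105). The 8 had a median of 0.43 on the log2 scale. All genes tested had one of 0.00, which TMM scaling sets near 0, and one of -0.10 with total counts.

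The levels of the 10 genes spanned a wide range across the libraries and are therefore drawn on a log axis.

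**Figure D1:**
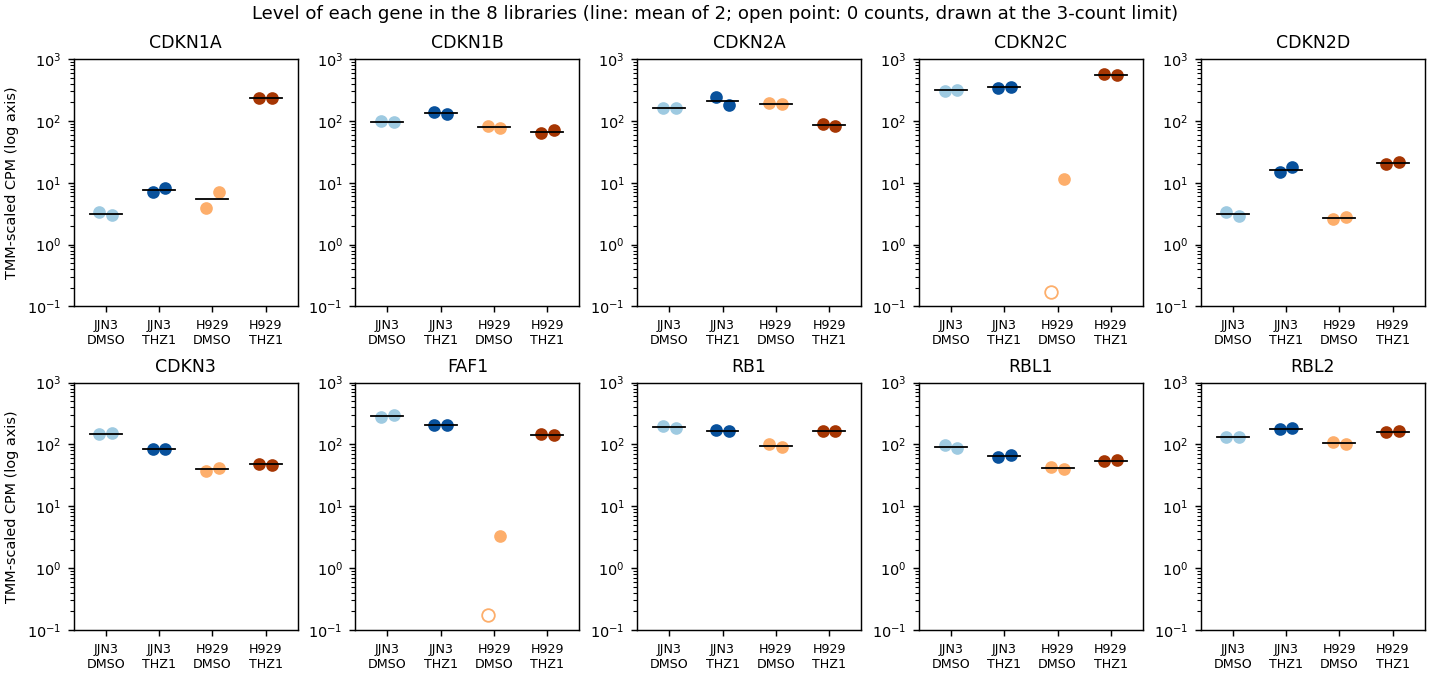
TMM-scaled CPM (log axis) of each gene in the 8 libraries, in 4 groups of 2, with a line at the mean and open points for 0 counts drawn at the limit of 3 counts. CDKN2D is near 3 CPM in all 4 DMSO libraries and at 14.8 to 21.8 CPM in all 4 labelled THZ1, and CDKN2C and FAF1 are at 0 in H929 DMSO replicate 1.

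CDKN2D (chr19:10677136-10679735, minus strand, hg19 as for all gene positions that follow) encodes an INK4 protein. Its counts in JJN3 were 64 and 57 under DMSO and 242 and 317 under THZ1, which is 3.31 and 2.92 CPM against 14.8 and 17.6 CPM. Both THZ1 libraries lay above both DMSO libraries. THZ1 raised it by 2.39 on the log2 scale (standard error, SE, 0.17, adjusted p = 1.74e-06), or 5.26-fold, and 97.7% of all genes tested changed by less. Under the H929 labels CDKN2D had 48 and 51 counts against 389 and 413, a log2 fold change of 2.97 (SE 0.15, adjusted p = 2e-11).

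CDKN2A (chr9:21967751-21995300, minus strand) encodes both the INK4 protein p16 and, from another first exon, ARF, which acts on MDM2. A count per gene does not separate them, and 593 exon bases, 15.26% of the gene's exons, are shared with the antisense RNA CDKN2B-AS1, which had 9 to 69 counts of its own. CDKN2A had 3179 and 3176 counts under DMSO against 4030 and 3222 under THZ1 in JJN3. The THZ1 replicates stood apart, at 246.5 and 179.2 CPM, and both were above the 164.5 and 162.7 CPM with DMSO. The log2 fold change of 0.39 (SE 0.12, adjusted p = 0.0179) was within the limit and the gene was not called. Without JJN3 THZ1 replicate 2 it was 0.61 and the gene was called higher. Under the H929 labels the direction was the other one, with 3557 and 3399 counts for DMSO and 1699 and 1551 for THZ1, and CDKN2A was called lower there (-1.14, SE 0.06, adjusted p = 2.48e-11).

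CDKN2C (chr1:51426417-51440306, plus strand) encodes p18-INK4c, an INK4 protein that plasma cells use in leaving the cycle. Of its exon bases, 617 (20.44%) are shared with an antisense RNA that was not counted as a gene of its own. In JJN3 CDKN2C had 5944 and 6167 counts under DMSO against 5552 and 6460 under THZ1, at 307.6 and 316.0 CPM against 339.6 and 359.2 CPM. The log2 fold change was 0.18 (SE 0.08), and 0.08 with scaling to total counts. In the libraries labelled H929 it had 0 and 205 counts under DMSO against 10835 and 10459 under THZ1, 0 and 11.4 CPM against 569.5 and 552.5 CPM. The 2 libraries labelled H929 DMSO thus held the lowest and the 2 labelled H929 THZ1 the highest levels of the 8, with all 4 of JJN3 between them.

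FAF1 (chr1:50902700-51425939, minus strand), which encodes a FAS-associated factor and is no CDK inhibitor, followed the same split. It had 5315 and 5903 counts under DMSO against 3430 and 3729 under THZ1 in JJN3, a log2 fold change of -0.45 (SE 0.08), or -0.56 with total counts. It had 0 and 60 counts under the H929 DMSO label and 2778 and 2670 in those labelled H929 THZ1. Unlike CDKN2C, FAF1 was higher in every JJN3 library than in every library labelled H929.

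The reads of both genes in H929 DMSO replicate 2 had a size that many other genes shared. Genes were taken that had at most 3 counts in H929 DMSO replicate 1 and at least 500 in both libraries labelled H929 THZ1. All 112 of them had more than 3 counts in H929 DMSO replicate 2, at a median of 2.04% of their level with the H929 THZ1 label (quartiles 1.78% and 2.35%, range 0.727% to 3.61%). CDKN2C stood at 1.96% and FAF1 at 2.24%. Of 23 genes with at least 500 counts in every JJN3 library and at most 3 in H929 DMSO replicate 1 and both H929 THZ1 libraries, 0 had more than 3 counts in replicate 2. Replicate libraries correlated at 0.981 (log2 CPM, across genes, which are not independent) for the H929 DMSO label and at 0.994 to 0.997 for the other groups.

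**Figure D2:**
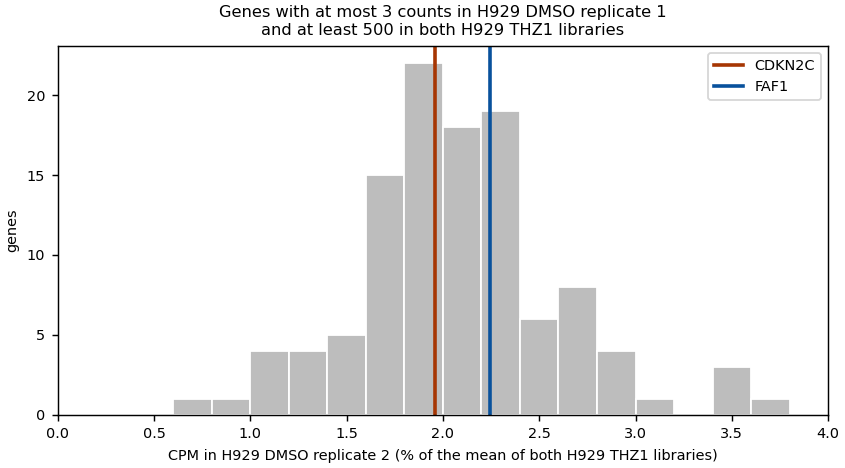
Number of genes (y axis) by their CPM in H929 DMSO replicate 2 as a percent of the mean of both H929 THZ1 libraries (x axis), for the 112 genes described. The lines mark CDKN2C at 1.96% and FAF1 at 2.24%, near the median of 2.04%.

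Among the genes around CDKN2C, the absence of reads in H929 DMSO replicate 1 covered CDKN2C and FAF1 and no other protein-coding gene within 1 Mb that had over 5 counts elsewhere. Of 13 protein-coding genes within 1 Mb, these 2 included, 6 had over 100 counts in a library. C1orf185, between CDKN2C and RNF11, had at most 1 count. RNF11, which starts 275.5 kb from CDKN2C, had 1047 and 1079 counts under the H929 DMSO label, 2229 and 2364 in those labelled H929 THZ1, and 1651 to 2556 in JJN3. EPS15, an endocytosis gene 558.6 kb away, had 593 and 600 counts with the H929 DMSO label and 1636 to 2216 in the other 6 libraries. On the other side of FAF1, DMRTA2, ELAVL4, AL645730.2 and AGBL4 had at most 5 counts in any library, so where the absence of reads ends on that side was not detectable.

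**Figure D3:**
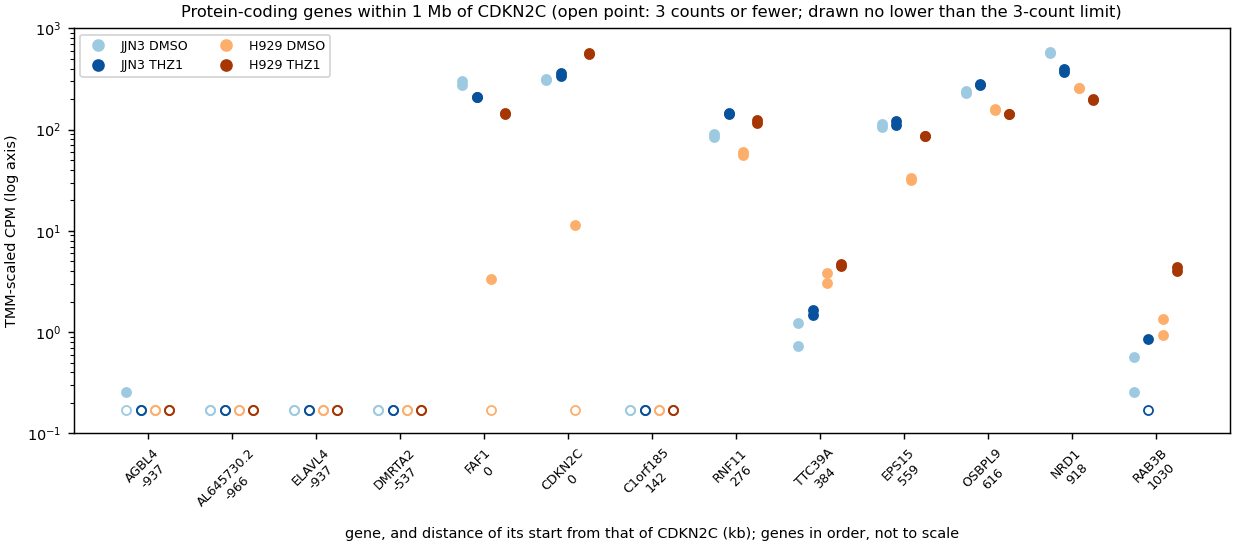
TMM-scaled CPM (log axis) of the 13 protein-coding genes within 1 Mb of CDKN2C, in order along the chromosome with the distance of their starts in kb, 2 points per group and open points for 3 counts or fewer. CDKN2C and FAF1 have points at the limit of detection only with the H929 DMSO label, while RNF11 and the genes beyond it have reads in every group but for single low points of RAB3B.

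Of the 6 neighbours of CDKN2C and FAF1 that could be tested, 4 were lower and 2 higher with the H929 DMSO label than in JJN3 with DMSO, where 30.7% of all 16122 genes were lower and 30.8% higher. EPS15 had a log2 difference of -1.76 and RNF11 of -0.58 (SE 0.08 and 0.07). In JJN3 itself RNF11 was higher after THZ1 (log2 fold change 0.74, SE 0.08, adjusted p = 1.55e-05) and EPS15 was at 0.08.

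Within the INK4 family, levels were compared per kb of exon, with all annotated exons of a gene merged. Shares within this and the other families depend on these lengths. CDKN2C made up 59.8% to 69.5% of the summed CPM per kb of the 4 INK4 genes in JJN3, and CDKN2A 25.7% to 33.7%. With the H929 DMSO label CDKN2A made up 95.3% and 88.2%, and CDKN2C 0% and 6.85%. With the H929 THZ1 label CDKN2C made up 83.5% in both libraries. CDKN2D rose in JJN3 from 1.48% and 1.29% of the family with DMSO to 5.22% and 6.52% with THZ1, so the INK4 gene with the largest fold change remained a small part of the family. CDKN2B, the fourth INK4 gene, was at most 1.54% in any library.

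CDKN1A (chr6:36644237-36655114, plus strand) encodes p21, an inhibitor that p53 is known to induce. In JJN3 it had 64 and 58 counts under DMSO against 114 and 148 under THZ1, which is 3.31 and 2.97 CPM against 6.97 and 8.23 CPM. The groups did not overlap, and the change was 1.29 on the log2 scale (SE 0.20, adjusted p = 0.00025), or 2.45-fold. Even with THZ1 the level in JJN3 stayed under 10 CPM. The H929-labelled libraries held 73 and 127 counts for DMSO and 4469 in each library for THZ1, at 3.93 and 7.04 CPM against 234.9 and 236.1 CPM. The change there was 5.43 (SE 0.12, adjusted p = 1.6e-15), or 43.2-fold, and 5.92 without H929 DMSO replicate 2.

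CDKN1B (chr12:12838432-12875303, plus strand) encodes p27, which is degraded through SKP2 and CKS1B. In JJN3 it had 1896 and 1863 counts under DMSO against 2236 and 2351 under THZ1, at 98.1 and 95.5 CPM against 136.8 and 130.7 CPM. The groups did not overlap, but the log2 fold change of 0.48 (SE 0.08, adjusted p = 0.000289) was just inside the limit, and it reached 0.51 without JJN3 THZ1 replicate 2. In the H929-labelled libraries the log2 fold change was -0.24 (SE 0.07, adjusted p = 0.00366), not called.

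CDKN1C, encoding p57, completes the CIP/KIP family and was not among the 10. It had 271 and 255 counts under DMSO against 710 and 811 under THZ1 in JJN3, a log2 fold change of 1.72 (SE 0.10, adjusted p = 9.01e-07). Between the H929 labels it went the other way, with 782 and 583 counts under DMSO but 44 and 32 under THZ1 (-4.21, SE 0.18, adjusted p = 3.63e-12). Per kb of exon, CDKN1B was the main CIP/KIP transcript of JJN3 with DMSO, at 61.1% and 62.2% of the family, and CDKN1C was at 50.6% and 51.9% with THZ1. The place of CDKN1C above CDKN1B with THZ1 rests on the merged exon lengths, 9255 bases for CDKN1B. In counts CDKN1B stayed above CDKN1C there (2236 and 2351 against 710 and 811). CDKN1A was 4.83% to 9.9% of the family in 6 libraries, and 90.9% and 90.5% with the H929 THZ1 label.

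CDKN3 (chr14:54863567-54886936, plus strand) encodes a phosphatase that removes the activating phosphate of CDK2 and is known to peak in mitosis. In JJN3 it had 2850 and 2948 counts under DMSO against 1365 and 1502 under THZ1. At 147.5 and 151.0 CPM against 83.5 CPM in both THZ1 libraries, it was lower with THZ1 (log2 fold change -0.82, SE 0.08, adjusted p = 7.31e-06). In the libraries labelled H929 it had 697 and 753 counts under DMSO against 928 and 885 under THZ1, a log2 fold change of 0.28 (SE 0.08, adjusted p = 0.00351), not called.

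RB1 (chr13:48877880-49173572, plus strand) encodes the RB protein, and RBL1 (chr20:35624752-35724400, minus strand) and RBL2 (chr16:53467889-53525560, plus strand) its relatives p107 and p130. RB1 had 3909 and 3663 counts under DMSO against 2773 and 2973 under THZ1 in JJN3. At 202.3 and 187.7 CPM against 169.6 and 165.3 CPM the groups did not overlap, with a log2 fold change of -0.20 (SE 0.08, adjusted p = 0.0457), not called. The H929-labelled libraries gave RB1 1861 and 1628 counts for DMSO and 3121 and 3173 for THZ1, and it was called higher there (log2 fold change 0.81, SE 0.06, adjusted p = 3.32e-09).

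RBL1, the member whose promoter is printed with its E2F motifs, had 1900 and 1683 counts under DMSO against 1026 and 1234 under THZ1 in JJN3. Its log2 fold change of -0.47 (SE 0.09, adjusted p = 0.00102) was inside the limit. It passed with total counts (-0.58), with no filter on low counts (-0.52) and without DMSO replicate 2 (-0.58) or THZ1 replicate 2 (-0.54). Between the H929 labels it was at 0.39 (SE 0.07, adjusted p = 0.000152), not called.

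RBL2 encodes p130, the RB relative of resting cells, and shares 609 exon bases with the antisense gene AKTIP, which had 112 to 247 counts. RBL2 had 2572 and 2549 counts under DMSO against 2941 and 3282 under THZ1 in JJN3, at 133.1 and 130.6 CPM against 179.9 and 182.5 CPM. The log2 fold change of 0.47 (SE 0.08, adjusted p = 0.000314) was not called. Between the H929 labels RBL2 was called higher (2043 and 1831 counts against 2995 and 3110, log2 fold change 0.61, SE 0.06, adjusted p = 6.97e-08).

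Within the RB family, per kb of exon, RB1 was the largest in every library, with 42.2% to 48.9%. This rank rests on the merged exon lengths (6434 bases for RB1, 8110 for RBL2). In counts RBL2 was above RB1 in JJN3 with THZ1 (2941 and 3282 against 2773 and 2973). The same held for the H929 DMSO label (2043 and 1831 against 1861 and 1628). RBL2 was below RB1 in JJN3 with DMSO and with the H929 THZ1 label. RBL2 went from 25.5% and 27% with DMSO to 37.5% and 37.7% with THZ1 in JJN3, while RBL1 went from 25.6% and 24.2% to 17.8% and 19.3%. Across the H929-labelled libraries the shares differed less, with RBL2 at 36.0% to 37.6% in all 4 libraries.

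**Figure D4:**
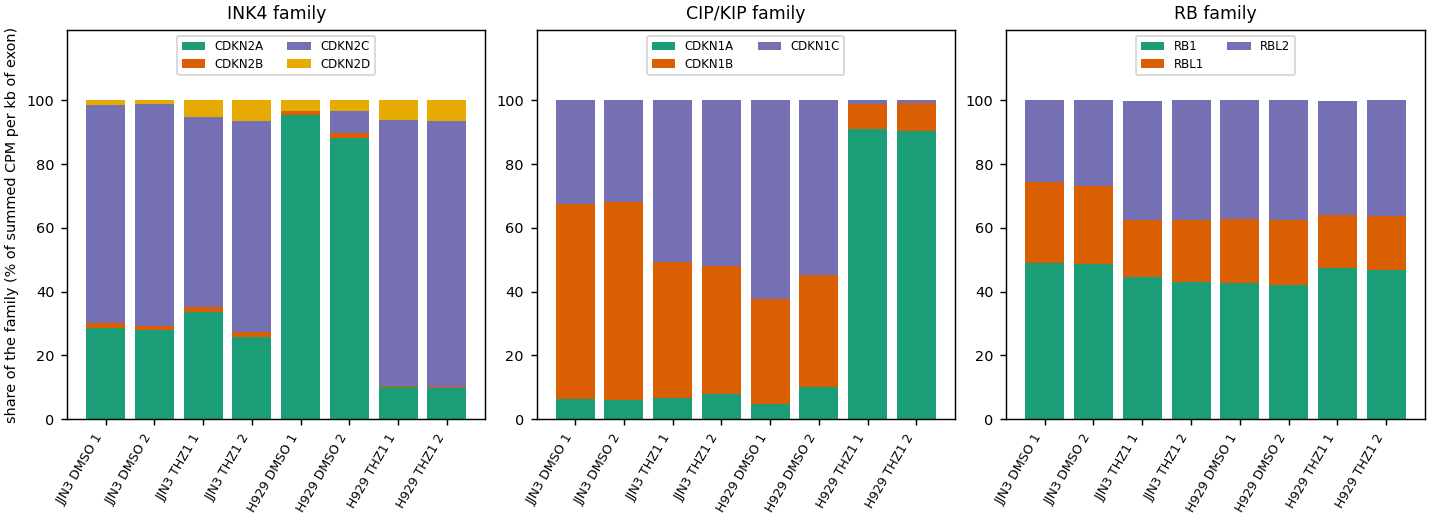
Share (%) of each gene in the summed CPM per kb of exon of its family (INK4, CIP/KIP and RB), one stacked bar per library. CDKN2C and CDKN2A exchange places between the H929 labels, and RBL2 takes a larger share of the RB family with THZ1 in JJN3.

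With the H929 labels, then, CDKN1A, CDKN2D, RB1 and RBL2 were called higher and CDKN2A lower, 4 and 1 of 8, where 33.1% of all 14863 genes were higher and 32.6% lower. The response to THZ1 differed between the labels of the lines for 7 of the 8, by the interaction over 8 libraries, against 53.7% of all 16122 genes. The call for CDKN2D (difference 0.58, adjusted p = 0.0463) was lost with DESeq2 (adjusted p = 0.139), with no filter (0.0574), with the replicate block (0.0617) and in 7 of 8 fits without a single library. RBL2 was not called (difference 0.15, SE 0.10, adjusted p = 0.197), with an increase of 0.47 in JJN3 and 0.61 with the H929 labels. For CDKN1A and CDKN2D both lines' values were higher with THZ1, and for CDKN1B, CDKN2A, CDKN3, RB1 and RBL1 the sign differed.

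With DMSO alone, the libraries labelled H929 were higher than JJN3 for CDKN1A (log2 difference 0.80, SE 0.22, adjusted p = 0.00442) and lower for 3 genes, where 61.5% of all genes were called in either direction. These were CDKN3 (-1.91, SE 0.07), RBL1 (-1.14, SE 0.09) and RB1 (-1.03, SE 0.07), with adjusted p at most 4.93e-09. Without H929 DMSO replicate 2, the difference for CDKN1A was 0.32 (adjusted p = 0.186) and it was not called. CDKN1B, CDKN2A, CDKN2D and RBL2 were not called (differences -0.28, 0.21, -0.20 and -0.32). Around RB1, 8 of 11 genes tested within 1 Mb were also lower with the H929 DMSO label and 1 was higher. Of all genes, 30.7% were lower and 30.8% higher. The lower neighbours of RB1 included ITM2B, 71.1 kb from it, at -1.46 and MED4 at -0.67. Around CDKN2A, 3 of 6 were lower and 0 higher. The lower ones included PTPLAD2, which had only 1 and 2 counts with the H929 DMSO label and 21 and 26 in JJN3 with DMSO. MTAP, the gene next to CDKN2A that is often lost together with it, had reads in all 8 libraries.

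Over the 4 groups, CDKN3, FAF1, RB1 and RBL1 shared one order of levels, from JJN3 DMSO at the top through JJN3 THZ1 and H929 THZ1 to H929 DMSO. CDKN2C and CDKN2D shared another, from H929 THZ1 through JJN3 THZ1 and JJN3 DMSO to H929 DMSO. In the 8-library fit, the share of all genes called was 37.6% between JJN3 THZ1 and JJN3 DMSO and 62.1% between H929 THZ1 and H929 DMSO. It was 63.0% between H929 THZ1 and JJN3 DMSO, 67.5% between H929 DMSO and JJN3 THZ1, and 63.9% between H929 THZ1 and JJN3 THZ1. For CDKN1A the order from the top was H929 THZ1, JJN3 THZ1, H929 DMSO and JJN3 DMSO, and JJN3 THZ1 and H929 DMSO were neighbours that overlapped (7.60 ± 0.89 and 5.48 ± 2.20 CPM, SD, n = 2 each) and were not called. For CDKN2D the 2 groups with THZ1 (21.1 ± 0.97 and 16.2 ± 2.00 CPM) were above the 2 with DMSO (3.12 ± 0.28 and 2.70 ± 0.17 CPM), and within each of these pairs the lines were not called. For RB1, JJN3 DMSO (195.0 ± 10.3 CPM) came first, and JJN3 THZ1 and H929 THZ1 (167.5 ± 3.0 and 165.8 ± 2.5 CPM) overlapped.

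For CDKN3, both JJN3 groups (149.3 ± 2.5 and 83.5 ± 0.03 CPM) were above both with H929 labels (47.8 ± 1.4 and 39.6 ± 3.0 CPM), and the last pair was not called. CDKN1B fell over a narrow range from 133.7 ± 4.3 CPM in JJN3 THZ1 to 67.2 ± 4.5 CPM in H929 THZ1, RBL1 from 92.3 ± 8.6 CPM in JJN3 DMSO to 42.0 ± 2.7 CPM in H929 DMSO, and RBL2 from 181.2 ± 1.9 CPM in JJN3 THZ1 to 105.7 ± 6.0 CPM in H929 DMSO. In these 3 genes no neighbours in the order were called apart. For CDKN2A, only H929 THZ1 (85.6 ± 5.2 CPM) was called apart from its neighbour, JJN3 DMSO (163.6 ± 1.3 CPM).

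The targets of the inhibitors were mostly lower after THZ1 in JJN3. Of 11 cyclins and CDKs of the cell cycle, 10 could be tested, 7 were lower and 0 higher, with a median log2 fold change of -0.74. Of all genes, 21.3% were lower and 20.6% higher. The gene lists were chosen with earlier results of these data known, so counts over them are a description and no independent support. CDK4, the target of INK4 proteins, was at -1.24 (SE 0.12, 1360 and 1521 counts against 437 and 634), and its partner CCND2 at -1.07 (9281 and 9557 counts against 4007 and 3799). CDK6, the other INK4 target, was at 0.21 (adjusted p = 0.117) and CCND3 at -0.05, neither called. CCNB1 (-1.07), CCNE1 (-0.88), CCNE2 (-0.78), CDK2 (-0.70) and CCNA2 (-0.62) were lower. CCND1 had at most 2 counts in JJN3 and was not tested.

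Genes that RB and E2F control were lower in part. Of 16 E2F target genes, 7 were lower and 0 higher in JJN3 (median -0.44), beside the same 21.3% and 20.6% of all genes. E2F1 itself was at -1.25 (SE 0.09, 1507 and 1555 counts against 497 and 634), CDC6 at -1.13, RRM2 at -1.05, MCM6 at -1.01, MCM3 at -0.82, MCM4 at -0.80 and PCNA at -0.68. PCNA fell out of the calls without THZ1 replicate 1 (-0.49). TK1 and TYMS, the genes of thymidine kinase and thymidylate synthase, were at 0.00 and 0.13 and were not called. A list of 10 genes held those of p27 turnover and of the MuvB complex, which holds RBL1 or RBL2 at promoters, together with CDC25A, a phosphatase that activates CDKs and belongs to neither. Of these 10, 1 was higher (LIN54, 0.66) and 2 were lower (CDC25A, -0.88, and LIN52, -0.56), which is no more than the share over all genes. SKP2, the receptor for p27, was at -0.39 and CKS1B at -0.05, not called. The 3 genes of the CDK7 kinase were not called, with CDK7, the target of THZ1, at -0.38 (adjusted p = 0.0128), CCNH at -0.40 and MNAT1 at -0.08.

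**Figure D5:**
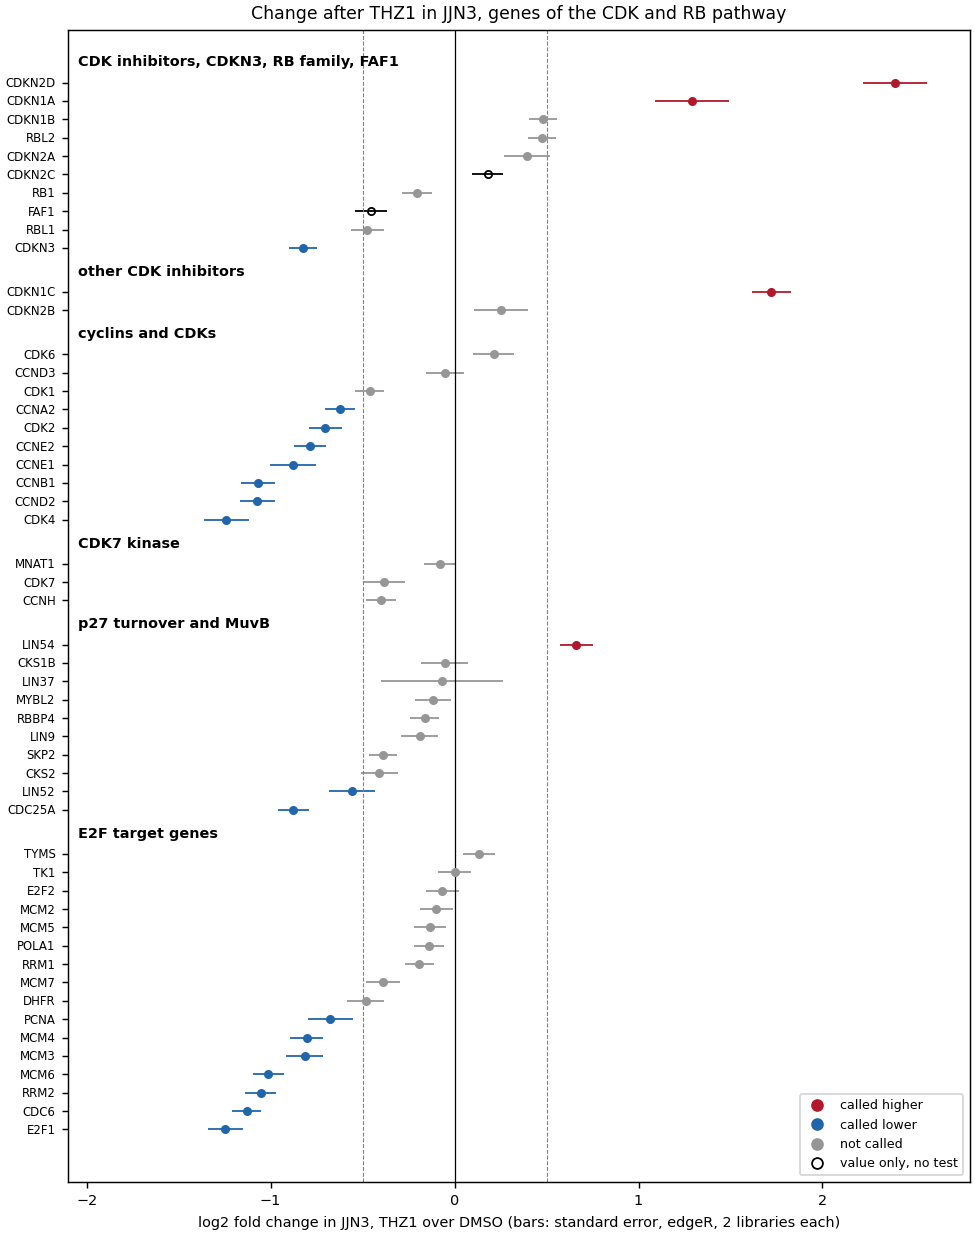
Log2 fold change of THZ1 over DMSO in JJN3 (x axis, bars are standard errors (SE) from edgeR, 2 libraries each) for the 10 genes and the pathway lists, with dashed lines at the limit of 0.5. CDKN2D at 2.39, CDKN1C at 1.72 and CDKN1A at 1.29 lie furthest to the right, and CDK4 and E2F1 furthest to the left.

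With the H929 labels 33.1% of all genes were higher and 32.6% lower, and the lists of cyclins and CDKs and of p27 and MuvB genes were near or below these shares in both directions. Of 11 cyclins and CDKs 3 were higher and 3 lower, and CDK4 (-1.10), CCND2 (-0.73) and CCNB1 (-0.85) were the lower ones. Of the E2F target genes 4 were higher and 7 lower, with E2F1 at 1.22 and PCNA at -1.75. Of the 10 p27, MuvB and CDC25A genes 3 were higher and 2 lower. CDK7 was lower (-2.20, SE 0.09, 931 and 911 counts against 212 and 201) and CCNH higher (0.77).

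Likeness to CDKN2C and CDKN1A was measured over the 8 libraries, as the Euclidean distance of log2 CPM centred on each gene's mean, among 8957 genes that averaged 3 or more on the log2 CPM scale. It is a description of 8 points that share libraries. Nearest to CDKN2C were IGKV3-15 (distance 1.26), PARM1 (2.02), PPP1R16B (2.06), CTAG2 (2.18) and FZD6 (2.25). Like CDKN2C, all 5 had at most 2 counts in H929 DMSO replicate 1, 34 to 372 in replicate 2 and at least 1837 with the H929 THZ1 label. Nearest to CDKN1A were EIF2AK3 (distance 1.35), which encodes the endoplasmic reticulum stress kinase PERK, RNF122 (1.55), ST3GAL6 (1.85), NBEA (1.88) and PTPN6 (2.00). EIF2AK3 had 299 to 648 counts in 6 libraries and 10932 and 10861 with the H929 THZ1 label.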

How the data were processed

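Libraries of JJN3 and H929 with THZ1 or DMSO (2 each) were grouped by the sample titles. The authors aligned 50-base single-end reads to hg19 with STAR 2.5.2a, kept uniquely mapping reads, used featureCounts on Ensembl genes, and deposited the raw counts per gene. Whether strand was used in counting is not given in the sources used here, so reads of a gene and of its antisense partner cannot be told apart. The authors' DESeq2 tables also hold mean signals, log2 fold changes, standard errors, scores and p-values, deposited as comparisons, and only the gene symbols of the one for JJN3 were used. The members and the gene lists were chosen with earlier results of these data known.

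Counts were tested in R 4.3.3 with edgeR 4.0.16 (TMM, filterByExpr, quasi-likelihood test, Benjamini-Hochberg adjustment over all genes) within each line, and over 8 libraries for the interaction and for pairs of groups. Alternatives were DESeq2 1.42.0, other scalings, filters and fold limits, the replicate number as a block, 1 fit for all libraries, and leaving out each library in turn. Genes were called at the thresholds of the study. The tests were tried on simulated data. The genes named were the 10 members, the genes of the pathway and marker lists, protein-coding genes within 1 Mb of CDKN2C, CDKN2A and RB1, and the 5 genes most like CDKN2C and CDKN1A. Exon lengths (all annotated exons of a gene merged) and gene positions are those of GENCODE for GRCh37, the same assembly as hg19. The authors' annotation version is not given in the sources used here. Replicates differed by more than sampling noise in every group.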

Additional observations from a re-analysis of the deposited data

Results flagged for a closer look

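The response to THZ1 differed between JJN3 and the libraries labelled H929 for 7 genes in the interaction over 8 libraries (edgeR, quasi-likelihood, adjusted by Benjamini-Hochberg over all genes), and 53.7% of all genes tested passed the same call. The difference, H929 labels minus JJN3 on the log2 scale, was 4.15 for CDKN1A (adjusted p = 4.13e-09), higher by 5.43 with the H929 labels and by 1.29 in JJN3. It was 1.11 for CDKN3 (adjusted p = 1.47e-07), 1.02 for RB1 (adjusted p = 2.57e-07), 0.87 for RBL1 (adjusted p = 1.1e-05) and 0.58 for CDKN2D (adjusted p = 0.0463). It was -1.53 for CDKN2A (adjusted p = 2.63e-07) and -0.71 for CDKN1B (adjusted p = 1.71e-05). CDKN2D kept its direction but was not called with DESeq2 (adjusted p = 0.139) or with no filter (0.0574), nor with any single library left out except JJN3 THZ1 replicate 2 (0.48 to 0.69, adjusted p 0.0514 to 0.155 in the 7 others), while the other 6 genes were called each time. The identity of the libraries labelled H929 was not tested, and the line, the label and the treatment cannot be told apart in these values.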

How the results depend on the processing

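With 2 libraries in a group, significance rests on a spread shared across genes. The number of members called in JJN3 was 3, 8 with no limit on the fold change, 2 beyond 1 (without CDKN3), and 3 to 6 when single libraries were left out, with 6 without JJN3 THZ1 replicate 2. With the H929 labels it was 5, 8 with no limit and 3 beyond 1. For a different response it was 7, 4 beyond 1, and 6 with DESeq2 and with no filter (without CDKN2D, adjusted p = 0.139 and 0.0574). With no limit on the fold change, RB1 in JJN3 also missed the threshold with DESeq2 size factors (adjusted p = 0.0677), at least 1 CPM in 2 libraries (0.0624) and the replicate block (0.0509). None of the 8 members tested changed direction within JJN3 or between the H929 labels under any alternative run. Replicate numbers did not pair the libraries (correlation of deviations -0.017 in JJN3 and -0.0411 with the H929 labels). With the replicate number as a block, 3 members were called in JJN3, 5 with the H929 labels, 6 for a different response (without CDKN2D, adjusted p = 0.0617) and 4 between the lines with DMSO, and 5902 genes in all in JJN3 against 5849.

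Scaling to total counts moved the median of all genes in JJN3 to -0.10 and the calls from 2877 higher and 2972 lower to 2353 and 3639. For the difference in response they were 5167 and 3641 with total counts, and the median was 0.18. DESeq2 and no filter moved the JJN3 median to 0.17 and 0.13 over more genes tested, and the cause of the call changes was not tested.

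Signs near 0 turned for genes not called. In JJN3, TK1, at 0.00, was -0.0195 with DESeq2, -0.104 with total counts, -0.0409 with no filter, -0.00158 with the block and -0.0148 with all 8 libraries in one fit. Without single libraries TK1 ranged from -0.101 to 0.0967, CKS1B from -0.168 to 0.038, LIN37 from -0.391 to 0.31, CCND3 from -0.181 to 0.062 and E2F2 from -0.153 to 0.0148. Under the H929 labels LIN52 was -6.817e-05 with all 8 libraries in one fit and ranged from -0.012 to 0.036 without single libraries, and CKS2 from -0.0732 to 0.11.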
